A study of Mus musculus with 2 samples.

Results

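Tagln/Acta2 keratinocytes are epidermal cells of newborn mouse back skin that carried keratinocyte keratins together with the contractile genes Tagln and Acta2. They were chosen by measured values, in each of 2 single-cell libraries separately. A cell had to have over 1000 and under 8000 detected genes and under 15% of its UMIs (unique molecular identifiers, 1 per captured RNA molecule) from mitochondrial genes. It had to carry at least 10 UMIs of Krt5 and Krt14 per 10000 UMIs, and more of these than of the collagen genes Col1a1 and Col1a2. It had to carry at least 3 UMIs of Tagln and Acta2 together and at least 1 UMI of 2 or more of the 6 genes Flrt2, Slit3, Adamts5, Ccser1, Itga1 and Pid1. This rule found 638 cells, 414 in the control library and 224 in the Gli2_EKO library, among 8206 cells within the limits on genes and mitochondrial UMIs and 10622 barcodes in all.

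The study asked what the transcription factors Gli2 and Gli3 do in hair follicle development, and 1 single-cell library was made per genotype at postnatal day 2. In the Gli2_EKO library, Cre recombinase driven by the K14 promoter deleted floxed Gli2 in keratinocytes; the control animals carried the floxed allele without Cre and are labelled WT. Both libraries came from epidermal whole mounts of back skin, freed of dermis with collagenase and dissociated with trypsin, and the number of mice behind each library is not stated. The deletion removes Gli2 only where the K14 promoter is active, so other cells of the same library keep the gene. Gli2 itself could not check the labels, because the deleted exons are not named in the sources used here and the assay counts the polyA end of an RNA.

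Hair follicles grow down from the epidermis, and their outer root sheath is a layer of keratinocytes that surrounds the inner layers and joins the basal epidermis above. Tagln encodes transgelin and Acta2 encodes smooth muscle actin, both proteins of the contractile cytoskeleton that are best known from smooth muscle and myofibroblasts. In the Hedgehog pathway the ligand Shh binds the receptor Ptch1, which frees Smo to activate the Gli factors; Ptch1, Gli1 and Hhip are themselves target genes, so that their RNA is read as a measure of pathway activity.

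All levels are CPM, the UMIs of a gene per 1000000 UMIs summed over the cells of a population in 1 library. Their intervals are exact 95% Poisson intervals, and those of ratios and shares are exact 95% binomial intervals. They cover counting error alone. With 1 library per genotype there was no replicate and no test was made, so a difference between genotypes compares these 2 libraries and could also be a difference between animals or preparations. A gene was compared when the groups compared held at least 50 of its UMIs together, and "past 2-fold" means a log2 ratio of at least 1 or at most -1 with 0.5 UMIs added to each count. The Tagln/Acta2 keratinocytes were sequenced to a similar depth in both libraries, with a median of 14416 UMIs per control cell and 14054 per Gli2_EKO cell, and held 6622025 and 3515969 UMIs in all. No barcode was shared by the libraries. Y-linked transcripts were found and Xist was at 0 UMIs in the Tagln/Acta2 keratinocytes of both. The 4 Y-linked genes Ddx3y, Uty, Kdm5d and Eif2s3y stood at log2 ratios of -0.36 to -0.29 for Gli2_EKO over control. Gm47283, also placed on the Y chromosome, was much lower in the Gli2_EKO cells, at log2 -3.15 to -2.53 over 14 ways to choose the cells. Whether this marks a difference between the animals was not tested.

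The sequences in front of 1 transcript each of Tagln and Ptch1 are shown because these genes stand for the contractile and the Hedgehog programme of the cells. Each line gives the 250 bases before the start of the gene's canonical GENCODE transcript on its own strand, 5′ to 3′, in build GRCm39. Capitals mark a CArG box in Tagln, the site bound by serum response factor in contractile genes, and the reverse complement of GACCACCCA, the motif bound by Gli factors, in Ptch1.
Tagln, chr9:45847405-45847654, minus strand: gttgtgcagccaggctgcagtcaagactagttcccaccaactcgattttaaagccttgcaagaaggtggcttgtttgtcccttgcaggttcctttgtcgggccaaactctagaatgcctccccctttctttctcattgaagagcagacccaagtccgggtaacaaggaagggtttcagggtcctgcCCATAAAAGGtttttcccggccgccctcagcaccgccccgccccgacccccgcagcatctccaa
Ptch1, chr13:63714093-63714342, minus strand: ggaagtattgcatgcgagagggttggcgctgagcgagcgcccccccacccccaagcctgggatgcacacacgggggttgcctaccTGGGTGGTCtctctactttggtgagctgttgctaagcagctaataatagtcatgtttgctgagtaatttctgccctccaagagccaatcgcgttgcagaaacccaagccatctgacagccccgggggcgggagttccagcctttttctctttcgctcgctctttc
The CArG box of Tagln lay 64 bases before the start, and the Gli motif lay 165 bases before that of Ptch1. The Ptch1 window precedes its canonical transcript but lies inside the span of the whole gene, chr13:63656142-63721412. Searched on both strands, a CArG box was in this window of 304 of 21770 protein-coding genes (1.40%) and in 5 of 40 genes of the contractile list with Tagln and Acta2 (12.5%). Of the 23 genes of that list that stood past 2-fold higher in Tagln/Acta2 keratinocytes of both libraries, 2 held one (8.70%), Tagln and Cnn2, against 3 of the other 17 (17.6%). GACCACCCA was in this window of 41 of 21770 genes (0.188%), Ptch1 among them. A match is a description of the letters and not evidence of binding.

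Tagln (ENSMUSG00000032085, chr9:45840909-45847404) stood at 1754 CPM (interval 1722 to 1786) in the control cells and 1927 CPM (interval 1881 to 1973) in the Gli2_EKO cells, against 18.4 and 23.8 CPM in the other keratinocytes. Acta2 (ENSMUSG00000035783, chr19:34217737-34232990) stood at 782 and 905 CPM, against 14.3 and 13.1 CPM. Both genes were therefore close to absent in the other keratinocytes and similar between genotypes in the chosen cells, as the rule in part fixed. Both were detected together in 316 of 414 control and 150 of 224 Gli2_EKO cells. The median cell carried 23.5 UMIs of the pair in the control library and 22 in the Gli2_EKO library, well above the limit of 3.

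**Figure D1:**
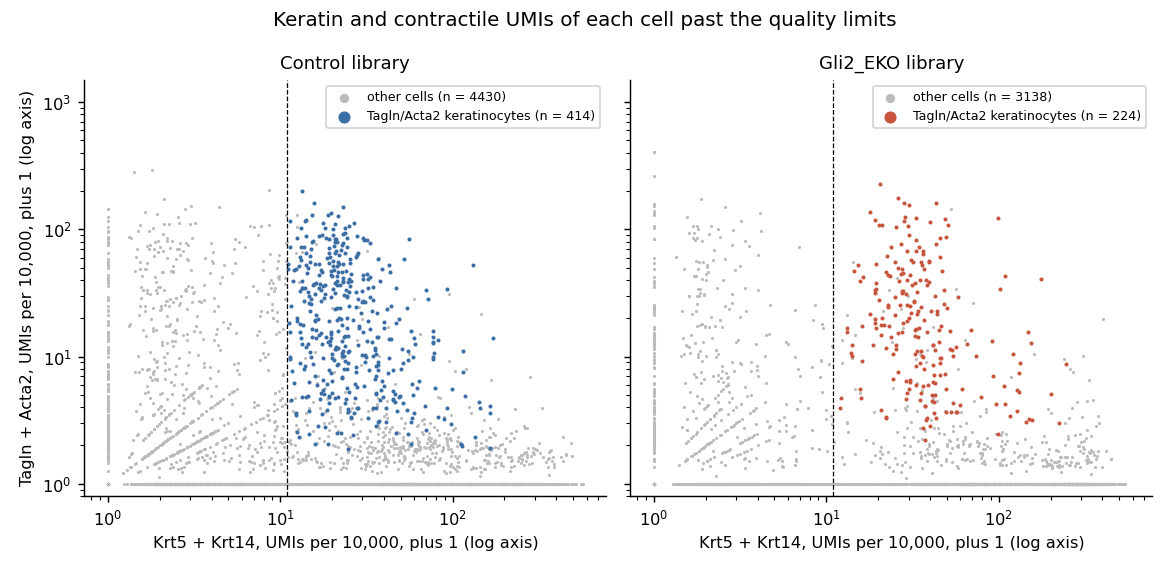
Each point is 1 cell within the limits on genes and mitochondrial UMIs, with Krt5 and Krt14 UMIs per 10,000 on the horizontal axis and Tagln and Acta2 UMIs per 10,000 on the vertical axis, both plus 1 and on log axes, control left and Gli2_EKO right. The dashed line is the keratin limit of 10 per 10,000. Coloured points are the 414 and 224 Tagln/Acta2 keratinocytes, which lie at lower keratin than most other keratinocytes, and the control cells reach closer to the line than the Gli2_EKO cells.

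The label calls these cells follicle keratinocytes, and keratinocyte markers were detected in them, but several at lower levels than in the other keratinocytes. Of the 10 markers compared, 0 were past 2-fold higher and 2 past 2-fold lower in both libraries. Over all genes the shares were 4.62% and 5.44%, and the counts are a description. The median log2 of the markers was -0.40 in the control and -0.39 in the Gli2_EKO library. Of 10 keratinocyte markers the median cell had 10 detected in the control and 9 in the Gli2_EKO library, among them Krt17, a keratin of the outer root sheath, at 2902 and 3538 CPM, and Trp63, the master factor of stratified epithelia, at 418 and 393 CPM. Krt14 was lower than in the other keratinocytes, at 1498 against 6703 CPM in the control and 2595 against 9847 CPM in the Gli2_EKO library, and Krt5 was lower in the same way. Cdh1, E-cadherin, was also lower, at 127 against 259 CPM in the control and 123 against 231 CPM in the Gli2_EKO library. Cdh3, P-cadherin of follicle epithelium, was higher at 272 against 161 and 230.1 against 114 CPM.

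Of the 10 outer root sheath and follicle stem markers, 4 were past 2-fold higher than in the other keratinocytes in both libraries and 1 was past 2-fold lower. Vdr, the vitamin D receptor, stood at 587 and 439 CPM against 126 and 81.3. Lgr5, a receptor that enhances Wnt signals and marks cycling follicle stem cells, stood at 451 and 341 CPM against 146 and 81.9. Tbx1 and Tcf7l1, transcription factors of follicle stem cells, were the other two, and Nfatc1, a factor of bulge stem cells, was the lower one at 11.8 and 13.7 against 70.1 and 51.6 CPM. Sox9, which specifies the outer root sheath, stood at 142 and 135 CPM, below the 376 and 378 CPM of the Sox9/Lhx2 follicle keratinocytes. These are a comparison group of other keratinocytes with at least 3 UMIs of Sox9 and Lhx2, high in Sox9 by its own rule. Sox9 was also low beside keratinocytes without contractile UMIs. With every cell thinned to 5000 UMIs, control keratinocytes with 0 UMIs of Tagln and Acta2 stood at 258 CPM and those with 6 or more at 96.9 CPM. The Gli2_EKO values were 187 and 140 CPM. As a background for these counts, 4.62% of 13059 genes compared were past 2-fold higher in both libraries and 5.44% past 2-fold lower; the rule chose cells in this same contrast, so nothing is read from the counts.

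Markers of the sebaceous gland, the upper follicle and the suprabasal layers were mostly low, and those of the inner follicle were mixed. Their counts are a description and stand beside 4.62% of genes past 2-fold higher and 5.44% past 2-fold lower in both libraries. All 5 sebaceous markers were past 2-fold lower than in the other keratinocytes in both libraries, among them Scd1, a fatty acid desaturase, at 11.8 and 14.5 CPM against 178 and 174. So were 4 of 6 upper follicle markers, among them Sostdc1 at 112 and 123 CPM against 453 and 411. Of the 6 suprabasal markers 4 were past 2-fold lower, with Krt10, a keratin of differentiating epidermis, at 74.0 and 273 CPM against 1549 and 2788. Of the 8 matrix markers 1 was past 2-fold higher and 2 lower, at a median log2 of -0.34 and -0.54, with Shh, the ligand of the pathway, at 3.02 and 1.42 CPM against 17.2 and 10.4. Of the 7 inner root sheath markers 1 was past 2-fold lower in both libraries and 0 higher, of the 3 hair shaft markers compared 0 either way, and of the 3 companion layer markers 1 lower.

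Markers of other cell types were mixed, and their part in the results was not tested. The 10 mural markers, of smooth muscle and pericytes, summed to 162 CPM in the control and 143 CPM in the Gli2_EKO cells. This was above the 35.3 and 35.5 CPM of the other keratinocytes. Of 5 compared there, 3 were past 2-fold higher in both libraries and 0 lower, at a median log2 of 2.68 and 4.33, as a description. The sum was below the 703 and 718 CPM of the contractile cells that failed the keratin step. Rgs5, by which the study set smooth muscle cells apart, stood at 54.1 and 40.4 CPM against 303 and 259 CPM in those cells, and 1.12 and 6.85 CPM in Sox9/Lhx2 follicle keratinocytes. At least 3 mural markers were found in 5 cells of each library, or 1.21% and 2.23%, and the pericyte genes Kcnj8, Abcc9 and Higd1b were each below 5 CPM. The 10 fibroblast markers summed to 377 and 549 CPM, against 605 and 625 CPM in the other keratinocytes and 18813 and 17069 CPM in fibroblasts. The sum hides a mixed list. Of 9 compared with the other keratinocytes, 2 were past 2-fold higher in both libraries and 2 lower, beside 4.62% and 5.44% over all genes. Their median log2 was 0.47 in the control and 1.26 in the Gli2_EKO library. At least 3 of the 10 markers were found in 28.3% of control and 20.1% of Gli2_EKO cells, against 22.4% and 23.4% of the other keratinocytes. Fbn1, by which the study set fibroblasts apart, was among the higher ones. It stood at 47.6 and 39.5 CPM against 6.13 and 5.68 CPM in the other keratinocytes and 718 and 577 CPM in fibroblasts. Doublet scores in the top 8% of a library were given to 46 control and 28 Gli2_EKO Tagln/Acta2 keratinocytes, 11.1% and 12.5% of them, against 8.15% and 7.44% of the other keratinocytes.

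**Figure D2:**
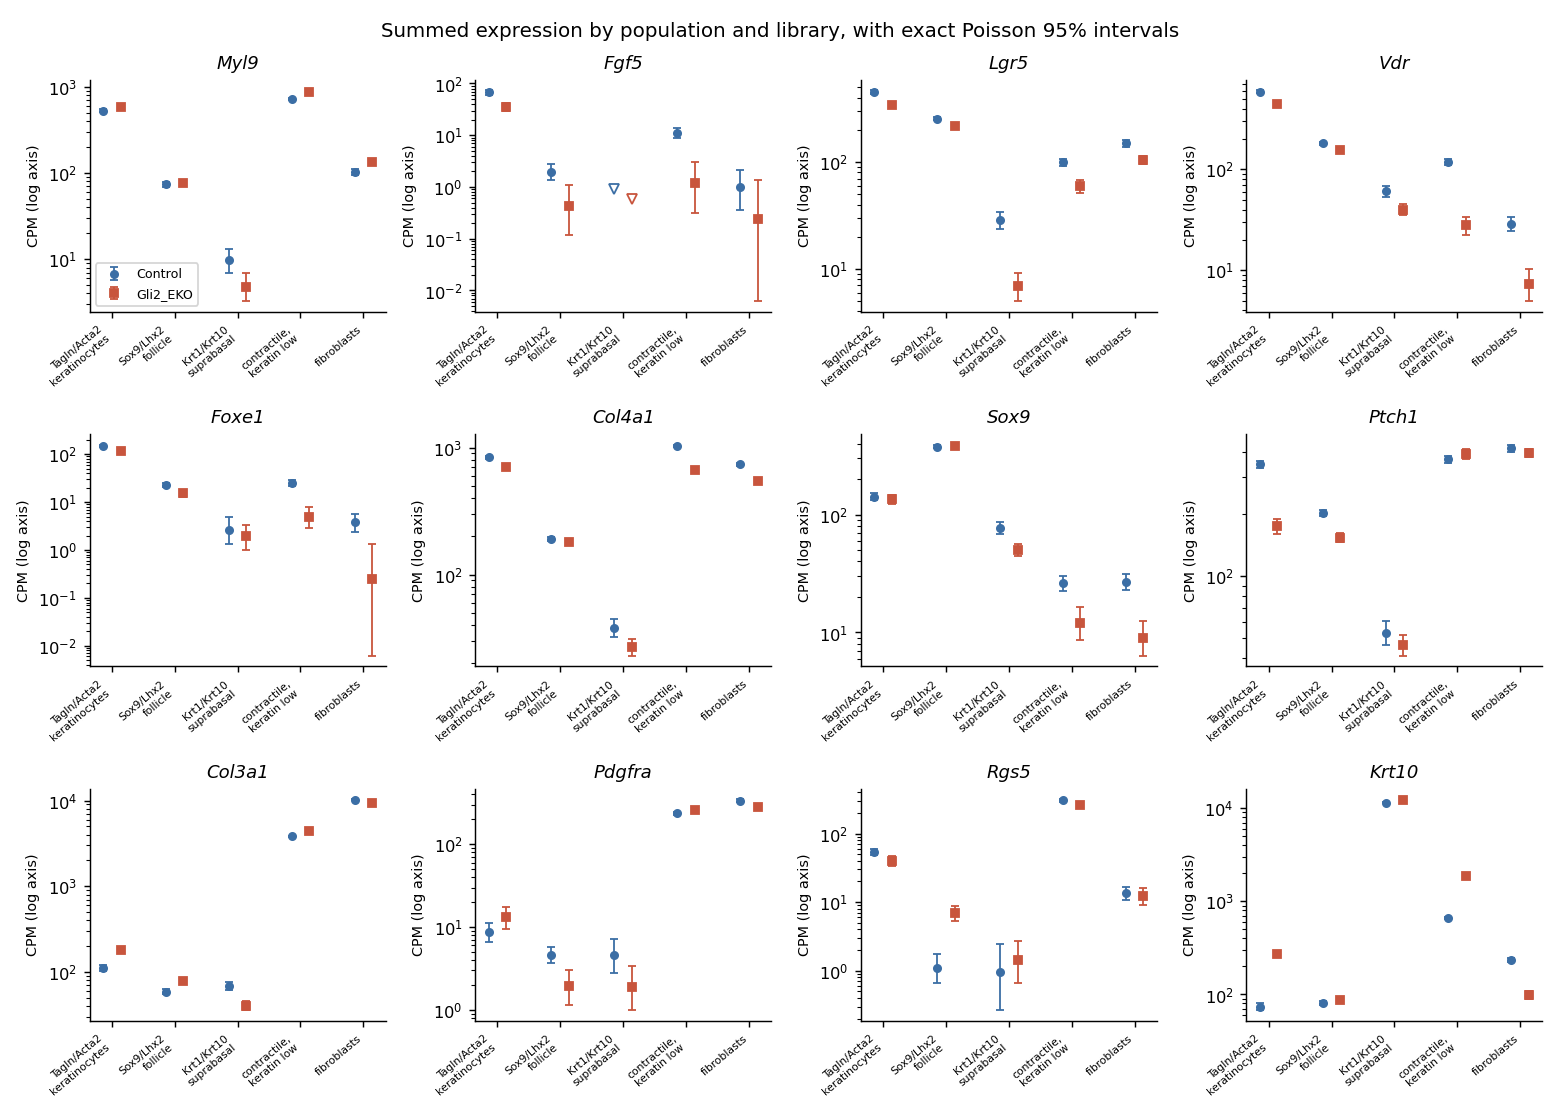
Level in CPM, on a log axis, of 12 genes in 5 populations, with blue circles for the control and red squares for the Gli2_EKO library and bars for the exact Poisson 95% interval; open triangles stand at the upper bound where no UMI was counted. Myl9, Fgf5, Lgr5, Vdr and Foxe1 stood higher in Tagln/Acta2 keratinocytes than in Sox9/Lhx2 follicle and in Krt1/Krt10 suprabasal keratinocytes of the same library, and the fibroblast genes Col3a1 and Pdgfra lay far below their levels in the contractile cells low in keratin.

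The limits of the rule cut through a continuum. At exactly 3 UMIs of Tagln and Acta2 stood 27 control and 11 Gli2_EKO cells, and 66 and 24 cells with exactly 2 were left out. Exactly 2 of the 6 genes were found in 42 and 46 chosen cells, while 22 and 32 cells with 1 of them and 10 and 18 with none were left out. The keratin limit divided the libraries unequally, with 25 control and 2 Gli2_EKO cells at 10 to under 12 UMIs of Krt5 and Krt14 per 10000 and 25 and 3 cells left out at 8 to under 10. The median over the chosen cells was 22.2 per 10000 in the control and 33.2 in the Gli2_EKO library, and 66.0 and 102.6 over the other keratinocytes.

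Of the 15 genes with the highest ratio over the other keratinocytes in both libraries, 10 were not used to choose the cells. Myl9, the regulatory light chain of smooth muscle myosin, stood at 534 and 593 CPM, log2 3.47 and 4.22 above the other keratinocytes. Fgf5, a secreted growth factor that ends the growth phase of the hair cycle, had 446 UMIs in the control and 125 in the Gli2_EKO cells, at 67.4 and 35.6 CPM against 1.09 and 0.245. Foxe1, a forkhead transcription factor of the follicle, stood at 148 and 116 CPM against 13.6 and 7.19. All 3 were thus at least log2 3.44 higher than in the other keratinocytes of the same library.

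Of the 10, Ggt1, which splits extracellular glutathione, stood at 49.8 and 81.9 CPM against 1.97 and 2.14, and Slc7a11, the cystine carrier, at 55.9 and 44.9 CPM against 3.47 and 2.98. Ckb, brain-type creatine kinase, stood at 222 and 253 CPM. Olfml2b, Prkg2, Cyp2s1 and Dhrs9 completed the 10, at log2 3.20 to 5.42 over the other keratinocytes. Among the next genes in that order were Ret and Ror2, both receptor tyrosine kinases, Gjb2, connexin 26, at 801 and 744 CPM against 108 and 62.2, and Slc7a8, an amino acid carrier, at 339 and 310.0 CPM.

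Of 34 compared genes of the contractile list 19 were past 2-fold higher than in the other keratinocytes in both libraries and 0 past 2-fold lower, beside 4.62% and 5.44% over all genes. Tagln and Acta2, left out of the list, chose the cells in this same contrast, so the counts are a description. The list stood at a median log2 of 1.16 in the control and 1.36 in the Gli2_EKO library, beside 0.00 and 0.05 over all genes. Tpm1, a tropomyosin, stood at 2989 and 2848 CPM against 473 and 438, and Cald1, caldesmon, at 1878 and 1973 against 507 and 338. Zyx, a protein of stress fibres and focal adhesions, stood at 278 and 299 CPM against 46.8 and 45.7. The smooth muscle genes of the list were found in a minority of the cells, with Cnn1, calponin, at 34.4 and 41.0 CPM in 20.8% and 21.9% of the cells and Myh11, smooth muscle myosin, at 28.8 and 26.5 CPM in 3.14% and 1.79%. In the contractile cells low in keratin Myh11 stood at 176 and 212 CPM and Cnn1 at 19.0 and 31.1 CPM. Rhoa, Rock1 and Ppp1r12a, regulators of contraction in all cells, stood only log2 0.12 to 0.29 above the other keratinocytes.

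Of 13 compared genes of the serum response factor and Yap list, 2 were past 2-fold higher in both libraries and 0 lower. Over all genes the shares were 4.62% and 5.44%, and the rule chose cells in this same contrast, so the counts are a description. Fhl1, a LIM protein of muscle, stood at 141 and 155 CPM against 18.5 and 15.1, and Mrtfa, the coactivator that senses free actin, at 178 and 158 CPM against 84.7 and 63.7. Srf itself stood at 19.3 and 17.3 CPM against 18.3 and 16.4. Myocd, the coactivator particular to smooth and cardiac muscle, had 5 and 5 UMIs.

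Of 29 compared genes of the basement membrane and its receptors 9 were past 2-fold higher and 3 past 2-fold lower in both libraries, beside 4.62% and 5.44% over all genes, again as a description. Col4a1 and Col4a2, the collagen IV chains of all basement membranes, stood at 842 and 708 and at 529 and 487 CPM against 122 and 101 and 84.0 and 76.3. Lamb1, Lamc1 and Lama5, laminin chains, Fn1, fibronectin, and the integrin genes Itga2, Itga3 and Itgb6 made up the rest of the higher group. The lower genes were Col17a1 and Col7a1, which anchor basal keratinocytes, with Col17a1 at 103 and 158 CPM against 365 and 337, and Npnt, nephronectin, at 16.3 and 13.7 against 101 and 54.0.

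The axon guidance list left out the chosen-for Flrt2 and Slit3. Of its 18 genes compared 4 were past 2-fold higher in both libraries and 2 lower, beside 4.62% and 5.44% over all genes, again as a description. Sema3e, a secreted semaphorin, stood at 423 and 272 CPM against 175 and 94.8, and Slit2, Ntn1 and Ntn4 were the others. The lower were Sema3d and the Slit receptor gene Robo2, the latter at 83.8 and 81.3 CPM against 243 and 194. Of 18 matrix protease and proteoglycan genes 4 were past 2-fold higher and 3 lower, beside the same shares over all genes. Adamts20 stood at 229.5 and 218 CPM against 37.7 and 21.2, and Timp3, an inhibitor of such proteases, at 1035 and 725 against 342 and 223.

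Of 18 TGF-beta genes 2 were past 2-fold higher in both libraries and 2 lower, beside 4.62% and 5.44% over all genes, as a description. The higher were Pmepa1, which TGF-beta induces and which restrains it, at 446 and 552 CPM against 107 and 99.2, and Ltbp3, which stores latent TGF-beta. The lower were Tgfb2 and Tgfbi, with the ligand Tgfb2 at 18.3 and 5.69 CPM against 81.4 and 42.9. Of 25 Wnt and BMP genes 3 were past 2-fold higher, Lgr5, Fzd1 and Id3, and 9 past 2-fold lower, beside the same shares over all genes. Among the 9 was Axin2, a target of Wnt signals, at 8.31 and 9.10 CPM, at log2 -1.71 and -1.12 over the other keratinocytes. No S phase or G2/M gene of 16 each was past 2-fold apart, and Mki67 stood at 535 and 391 CPM against 465 and 286.

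Clustering the keratinocytes without the 12 genes of the rule and without the Hedgehog list placed most of the cells in 3 of 16 clusters. Clusters 0, 2 and 11 held 351 of the 414 control cells (84.8%) and 185 of the 224 Gli2_EKO cells (82.6%). Cluster 11 consisted almost wholly of Tagln/Acta2 keratinocytes, 112 of its 113 control cells and 39 of its 43 Gli2_EKO cells. Clusters 0 and 2 held more of them in number but mixed with other keratinocytes, at 142 of 407 and 97 of 287 control cells and 87 of 258 and 59 of 185 Gli2_EKO cells. The genes that led cluster 11 included Akap5, Slc7a11, Fgf5 and Ggt1, those of cluster 0 Spon1, Fndc1 and Sfrp1, and those of cluster 2 genes of cell division such as Kif2c and Depdc1a. Fgf5 and Fads2, both leading in cluster 11, differed between the libraries, so that its size is given per library and not compared.

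**Figure D3:**
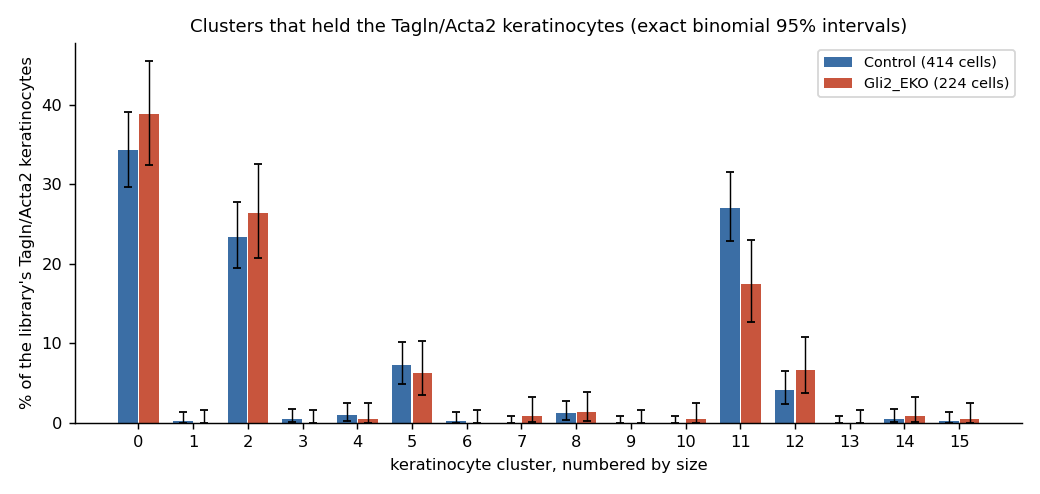
Bars give the share, in %, of the Tagln/Acta2 keratinocytes of each library (414 control, 224 Gli2_EKO) in each of 16 keratinocyte clusters, with exact binomial 95% intervals. Clusters 0, 2 and 11 hold 84.8% and 82.6% of them.

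Most of the remaining cells lay in cluster 5, led by the matrix genes Shh, Cldn10 and Krt35, with 30 control and 14 Gli2_EKO cells, and in clusters 12, 14 and 15. Cluster 12 was led by Edn3, Corin, Rspo3 and Fgf7, which are known from the dermal papilla, and held 17 and 15 of the cells. Clusters 14 and 15 were led by melanocyte and macrophage genes and held 3 cells in each library. Cluster 8, with Krt6a among its leading genes, held 5 and 3 of the cells and cluster 4, with Krt10 and Krt1, held 4 and 1. Clusters 12, 14 and 15 together held 4.83% of the control and 8.04% of the Gli2_EKO cells, and values without them are given beside the results they touch.

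Within the chosen cells, Myl9 and Cnn1 were higher where Tagln and Acta2 were higher, and the rest of the contractile list was not taken in steps. In the control library, 50 cells had under 3 UMIs of the pair per 10000, 107 had 3 to under 10 and 257 had 10 or more; in the Gli2_EKO library these were 22, 59 and 143. Over these steps Myl9 stood at 223, 327 and 712 CPM in the control and 187, 353 and 779 CPM in the Gli2_EKO library. Cnn1 stood at 6.71, 8.59 and 53.8 CPM in the control and 2.10, 5.71 and 63.8 CPM in the Gli2_EKO library. Fgf5 stood at 15.3, 28.6 and 99.2 CPM in the control and 6.29, 25.1 and 46.2 CPM in the Gli2_EKO library. Col4a1 and Vdr had the same order of steps in both libraries, so the cells with the most contractile RNA were also the richest in Fgf5, collagen IV and Vdr. Krt14 ran the other way, from 2940 to 1101 CPM in the control and from 4805 to 1908 CPM in the Gli2_EKO library.

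Tagln/Acta2 keratinocytes were a smaller share of the keratinocytes in the Gli2_EKO library. They made up 15.9% (interval 14.6% to 17.4%) of 2597 control keratinocytes and 10.6% (9.36% to 12.04%) of 2105 Gli2_EKO keratinocytes, a ratio of 0.668 (0.565 to 0.787). Among all cells within the limits they were 8.55% and 6.66%, a ratio of 0.780 (0.660 to 0.919). Shares of a dissociated sample depend on what the preparation released, and keratinocytes were 53.6% of control and 62.6% of Gli2_EKO cells. A keratin limit of 20 in place of 10 UMIs per 10000 left 243 control cells and moved the ratio to 0.880. The ratio also moved with the limit on the 6 genes, of which Slit3 and Itga1 were themselves lower in the Gli2_EKO cells. It was 0.724 with at least 1 of the 6 and 0.590 with at least 3. Before the 6 genes were asked for, the Tagln and Acta2 step held 17.2% of control and 13.0% of Gli2_EKO keratinocytes. What the 6 genes add to the difference in shares was not tested.

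Few genes differed between the genotypes within these cells. Of 10746 genes compared, 146 (1.36%) were past 2-fold higher in the Gli2_EKO cells and 205 (1.91%) past 2-fold lower, and the median log2 ratio was -0.06. Without the cells of clusters 12, 14 and 15 the numbers were 61 and 216. Among the 9272 genes found in at least 10% of the cells of each library, 40 (0.431%) were past 2-fold higher and 45 (0.485%) lower.

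The Hedgehog target genes Ptch1, Gli1 and Hhip were lower in the Gli2_EKO cells. Ptch1 (ENSMUSG00000021466, chr13:63656142-63721412), the Shh receptor, stood at 347 CPM (interval 333 to 362) in the control and 174 CPM (interval 160.3 to 188) in the Gli2_EKO cells, a log2 ratio of -0.998 (-1.13 to -0.87) that stayed just short of 2-fold. The Gli2_EKO level was 50.1% of that in the control. Gli1, an activator that the pathway induces, stood at 40.6 and 23.0 CPM, log2 -0.82 (-1.20 to -0.45). Hhip, which binds and holds Shh, had 62 UMIs in the control and 7 in the Gli2_EKO cells, log2 -2.23 (-3.61 to -1.11), and was the only gene compared in the Hedgehog list that was past 2-fold. Of the control UMIs of Hhip 49 lay in the 17 cells of cluster 12, the cluster led by dermal papilla genes, where the log2 ratio was -3.28 (-4.97 to -1.96). Without clusters 12, 14 and 15 it was -1.67 with an interval from -4.86 to 0.48. Over the 14 ways to choose the cells it ran from -2.62 to -0.47, the latter with a limit of 2 UMIs of Tagln and Acta2, so that the gene was not past 2-fold under each of them.

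The rest of the pathway stood nearer to its control level. Gli2 itself was at 122 and 106 CPM, log2 -0.20 (-0.38 to -0.02), and Gli3 at 149 and 115 CPM, log2 -0.37 (-0.55 to -0.21). Smo, the signal transducer, was at 124 and 116 CPM, and Gas1, a coreceptor, at 99.4 and 131 CPM, log2 0.39. Ccnd1 was lower and Ccnd2 higher, at log2 -0.37 and 0.33. Of 18 genes of the list compared, 0 were past 2-fold higher and 1 past 2-fold lower, beside 1.36% and 1.91% over all genes. The median log2 of the list was -0.20 beside -0.06 over all genes. Over the settings tried, the log2 ratio of Ptch1 ran from -1.05 to -0.70, the latter with a keratin limit of 20 UMIs per 10000, and that of Gli1 over 14 of them from -1.06 to -0.73.

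The log2 ratio of Ptch1 was closer to 0 in the comparison groups, a difference between populations that could not be tested with 1 library per genotype. In Sox9/Lhx2 follicle keratinocytes Ptch1 stood at 202 and 153 CPM, log2 -0.39 (-0.48 to -0.30), and in the contractile cells low in keratin at 368 and 388 CPM, log2 0.08 (-0.02 to 0.17). Fibroblasts, outside the reach of a K14-driven Cre, stood at 415 and 394 CPM. After every cell was thinned to 5000 UMIs, 65.7% of control and 48.9% of Gli2_EKO Tagln/Acta2 keratinocytes held a Ptch1 UMI, against 89.4% and 76.8% unthinned. Suprabasal keratinocytes, at the same depth after thinning and with medians of 18423 and 18079 UMIs before it, gave 14.4% and 15.5%.

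Among all keratinocytes thinned to 5000 UMIs, Ptch1 was higher at each step of contractile UMIs in the control library, while in the Gli2_EKO library the cells at 2 UMIs stood highest. With 0, 1, 2, 3 to 5 and 6 or more UMIs of Tagln and Acta2, the control cells stood at 141, 180.4, 239, 295 and 337 CPM of Ptch1. The Gli2_EKO cells stood at 117, 149.6, 206, 200 and 155 CPM. The genotypes were therefore closest among cells with up to 2 contractile UMIs and farthest apart among those with the most. Within the chosen cells alone, taken unthinned, the levels had no such order. At under 3, 3 to under 10 and 10 or more UMIs of the pair per 10000, Ptch1 stood at 382, 253 and 380.4 CPM in the control and 157, 234 and 153 CPM in the Gli2_EKO library. The genotypes were thus apart at both ends and close in the middle. The low step had the highest median UMIs per cell, 19941 and 20270, and the most Col3a1, at 248 and 447 CPM. In the control it held Hhip at 33.6 CPM, against 1.72 and 6.26 CPM in the steps above. What these differences add to the Ptch1 level of that step was not tested. The thinned steps from 2 UMIs on rest on few cells, 56 and 35 at 2 UMIs and 74 and 54 at 3 to 5.

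Ptch1 was lower in the Gli2_EKO cells of each of the clusters that held at least 14 of them in both libraries. In cluster 11 the Tagln/Acta2 keratinocytes stood at 499 and 169 CPM, log2 -1.56 (-1.92 to -1.22), in cluster 2 at 399 and 219.5 CPM, log2 -0.86, and in cluster 0 at 223 and 157 CPM, log2 -0.51. In clusters 5 and 12 the log2 ratios were -0.87 and -0.82. The other keratinocytes of cluster 0 gave log2 -0.54 and those of cluster 2 -0.77. Those of cluster 12 gave -0.58 (-0.85 to -0.32) and those of cluster 5 -0.22 (-0.37 to -0.07). Among these clusters the difference was thus largest in cluster 11, which had too few other keratinocytes to compare. In clusters 0 and 2 it was shared with the other keratinocytes of the cluster, and in cluster 5 it was larger in the chosen cells.

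**Figure D4:**
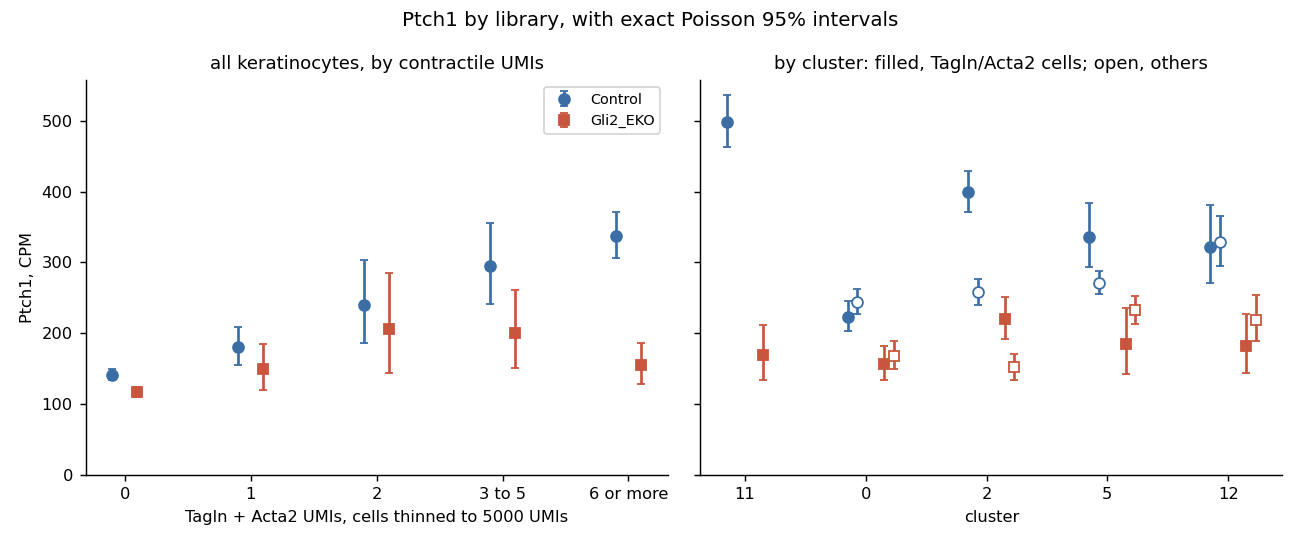
Ptch1 in CPM with exact Poisson 95% intervals, blue circles for the control and red squares for the Gli2_EKO library. Left, all keratinocytes thinned to 5000 UMIs, by their UMIs of Tagln and Acta2; right, by cluster, filled for Tagln/Acta2 keratinocytes and open for the other keratinocytes of the cluster, of which cluster 11 had too few to draw. The control goes from 141 to 337 CPM across the left panel, and the Gli2_EKO library from 117 to 155 CPM with its highest value at 2 UMIs.

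The 6 genes that helped to choose the cells differed unevenly between the genotypes, and their values are a description. Slit3, a secreted guidance ligand, stood at 682 and 337 CPM, log2 -1.02 (-1.11 to -0.92), and Itga1, the integrin that binds collagen IV, at 359 and 154 CPM, log2 -1.22 (-1.36 to -1.09). Ccser1 was at log2 -0.52, Adamts5, a proteoglycan-cleaving protease, at -0.39, and Flrt2, an adhesion and guidance protein, at -0.31. Pid1 was the higher one, at 45.0 and 65.7 CPM, log2 0.55. Slit3 and Itga1 were also lower in the other keratinocytes, at 83.2 and 41.5 and at 56.7 and 22.6 CPM. The receptor gene Robo1 stood at 96.6 and 46.6 CPM, log2 -1.05 (-1.31 to -0.80), and Unc5b at log2 -1.35. Of 18 genes compared in the guidance list these 2 were past 2-fold lower and 0 higher, beside 1.91% and 1.36% over all genes. Over the 14 ways to choose the cells Robo1 ran from -1.53 to -0.61 and Unc5b from -1.61 to -0.23, so that neither was past 2-fold in each. The value nearest 0 was that of the limit of 2 UMIs of Tagln and Acta2 for Robo1 and that of clusters 0, 2 and 11 alone for Unc5b.

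Of the genes found in at least 10% of the cells of each library, those named here were past 2-fold lower in the Gli2_EKO cells. Col14a1 (ENSMUSG00000022371, chr15:55171140-55384199), a collagen that sits on the surface of fibrils, stood at 228 CPM (interval 216 to 239) and 56.0 CPM (48.5 to 64.4), log2 -2.02, and was found in 76.3% of control and 40.6% of Gli2_EKO cells. It was also lower in the other keratinocytes, at 69.3 and 21.3 CPM, and less so in fibroblasts, at log2 -0.27. Vcan, the large proteoglycan versican, stood at 146 and 42.4 CPM, log2 -1.78 (-2.04 to -1.53). Both were low in each of clusters 0, 2 and 11, at log2 -1.11, -2.25 and -2.97 for Col14a1 and -2.10, -3.88 and -4.35 for Vcan, while in cluster 12 Vcan stood at -0.75 (-1.11 to -0.39).

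Fads2, a fatty acid desaturase, stood at 51.5 and 9.67 CPM, log2 -2.41 (-2.97 to -1.90), while in the other keratinocytes it stood at 3.81 and 2.59 CPM. Col4a4, a collagen IV chain, and Krt7, a keratin of simple epithelia, were lower, Col4a4 at log2 -2.08 and Krt7 at 39.7 and 9.95 CPM. Across 14 other ways to choose the cells the log2 ratio stayed at -2.22 to -1.81 for Col14a1, -3.33 to -1.30 for Vcan, -2.56 to -1.66 for Fads2, -2.21 to -1.86 for Col4a4 and -2.33 to -1.76 for Krt7. All 5 were past 2-fold lower in each of the 14, but not in each cluster. Among the cells of cluster 2 Col4a4 stood at -0.27 (-1.19 to 0.59), and among those of cluster 11 Krt7 stood at -0.58 (-1.57 to 0.30). Fgf5 was lower but not past 2-fold, at log2 -0.92 (-1.22 to -0.63).

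Among the same common genes, 3 that were higher in the Gli2_EKO cells are named. Emb, embigin, a partner of lactate carriers, stood at 30.1 and 90.2 CPM, log2 1.59 (1.32 to 1.85), and the serine protease gene Prss23 at 21.1 and 67.1 CPM, log2 1.67 (1.36 to 1.98). Sbspon was higher at log2 1.49. Over the same 14 ways the ratios were 1.36 to 1.93, 1.62 to 1.89 and 1.42 to 1.68. Emb stood at 7.68 and 84.6 CPM in cluster 11, and at 31.8 and 108 CPM in cluster 0. In cluster 2 its log2 ratio was 1.12, and in cluster 12 it was lower in the Gli2_EKO cells, at -0.92 (-1.75 to -0.12). Ggt1, among the leading genes of the cells, was higher by log2 0.72 (0.48 to 0.95), short of 2-fold.

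Counts past 2-fold between the genotypes in the gene lists stand beside 1.36% higher and 1.91% lower over all genes, and nothing particular to a list is read from a count of 0 or 1. Of 34 contractile genes compared, 1 was past 2-fold higher, Actg2 at 5.44 and 25.9 CPM with 35.2% of its Gli2_EKO UMIs in 1 cell, and 0 lower, with a median log2 of 0.08. Tpm1, Cald1 and Myl9 stood at log2 -0.07, 0.07 and 0.15. Of the 10 outer root sheath markers 0 were past 2-fold in either direction, at a median of -0.41; Lhx2, a factor that maintains follicle stem cells, was at 242 and 148 CPM, log2 -0.70, and Lgr5 at log2 -0.41. The basement membrane list, with 28 compared, had 0 past 2-fold either way, and so had the 13 of the serum response factor list. Of 18 TGF-beta genes Tgfb2 alone was past 2-fold, at 18.3 and 5.69 CPM, log2 -1.68. No S phase or G2/M gene was past 2-fold, and Mki67 stood at log2 -0.45. Of the 15 stress genes 0 were past 2-fold, with Hspa1a, a heat shock protein gene, at 554 and 1044 CPM, log2 0.92.

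Many of the largest ratios came from few cells, and their share in the single richest cell is given for that reason. Pf4, a platelet and macrophage chemokine, was highest in the Gli2_EKO cells at log2 5.90, with 96.3% of its 190 UMIs in 1 cell. The melanocyte genes Dct, Mlana, Tyrp1 and Pmel were higher at log2 3.12 to 3.68, with 58.1% of the Dct UMIs in 1 cell, and 2 cells of each library had at least 3 melanocyte markers. Mfap5, a fibroblast gene, had 71.7% of its Gli2_EKO UMIs in 1 cell. On the control side Ccl21a, Hbb-bs, a globin gene of red blood cells, and Pinlyp had 95.9%, 64.3% and 36.4% of their UMIs in 1 cell. These genes describe single cells and not the population.

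Krt1, Krt10 and several mesenchymal genes were higher in the Gli2_EKO cells, but their ratios turned negative or came near 0 when a small number of cells was left out. Krt1 and Krt10 stood at log2 2.28 and 1.89, and 50.2% of the Krt10 UMIs were in 1 cell; 4 control and 5 Gli2_EKO cells had at least 10 UMIs of Krt1 and Krt10 per 10000. Without the cells of clusters 12, 14 and 15 the ratios were -0.69 and -0.36. Of 9 mesenchymal genes compared 4 were past 2-fold higher, among them Vim, vimentin, at 179 and 382 CPM, log2 1.10, and Sparc stood at log2 0.99. Without those 3 clusters Vim was at -0.62 and Sparc at 0.05. Krtdap, a gene of early differentiation, kept its direction over the 14 ways, at log2 2.24 and 1.08 to 2.99.

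Of the 7 inner root sheath markers 5 were past 2-fold lower in the Gli2_EKO cells. Krt25, a keratin of the inner sheath, stood at 58.3 and 13.1 CPM, log2 -2.16, with 36.3% of the control UMIs in 1 cell, and at -2.67 to -1.35 over the 14 ways. Krt28 and Krt73 were at log2 -2.55 and -4.57, with 49.0% and 43.3% of the control UMIs in 1 cell. Gata3, the transcription factor of the inner sheath, stood at 71.6 and 74.2 CPM. The ratios of Krt25, Krt28 and Krt73 thus rest in large part on single control cells, and no change of the population is read from them. Only 5 of the 7 markers had a negative log2 ratio, and Gata3 was not among them.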

How the data were processed

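The control and the Gli2_EKO library, 1 per genotype, were 10x 3′ polyA libraries of epidermal cells. The authors ran Cell Ranger 9.0.1 on the GRCm39 genome and GENCODE genes, and deposited whole-number UMI counts of each gene in each barcode called as a cell, not normalized. Only polyA ends were captured, so a level does not depend on transcript length and says nothing of isoforms or deleted exons. The libraries held 71021773 and 48866478 UMIs, in 6326 and 4296 barcodes.

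From these counts, cells were chosen by the rule given above, and UMIs were summed per population and library. Ratios, shares and CPM were computed here (Python 3.11, scipy 1.17.1), with Poisson, Clopper-Pearson and conditional binomial intervals at 95%. No test was made, because there was 1 library per genotype. Scrublet (scanpy 1.11.5, rate 0.06) gave each cell a doublet score, and no cell was removed by it; the study removed doublets with another tool, which was not run here. Other keratinocytes are the cells past the keratin step that are not Tagln/Acta2 keratinocytes. Suprabasal keratinocytes are those with at least 10 UMIs of Krt1 and Krt10 per 10000. Keratinocytes of both libraries were log-normalised and clustered without integration (2000 variable genes, 20 principal components, Leiden resolution 0.5, seed 1). The cells and gene lists were chosen with earlier results of these data known. Named genes are those of the rule, the fixed lists, the 15 leading genes and the 8 highest and lowest ratios. Akap5, Fads2, Col14a1, Emb, Prss23, Sbspon, Krt7, Col4a4, Ret, Ror2, Gjb2, Slc7a8, Gm47283 and further leading genes of clusters were named after their values were seen. The calls were run on simulated summed counts with Poisson error alone, without variation between cells or libraries. There 48 of 48 genes raised by log2 2 and 49 of 50 lowered by log2 1.5 were called. Changes this far past the limit of log2 1 were nearly bound to be called. The run therefore checks the calculation and says nothing of genes whose UMIs lie in few cells. Promoters were read from GRCm39 with a later GENCODE release; CArG boxes were searched by their standard consensus on both strands. Alternatives changed the steps of the rule, the cells kept, the scaling (edgeR 4.0.16 trimmed mean factors) and the filter on low counts.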

Additional observations from a re-analysis of the deposited data

Results flagged for a closer look

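Among barcodes left out for their number of detected genes or their mitochondrial share, 4 of Gli2_EKO met every other step of the rule for Tagln/Acta2 keratinocytes, against 1 of the control. They were flagged as signal in barcodes that no comparison used. The 4 had a median of 47391 UMIs, and 40 UMIs of Tagln and Acta2, above the medians of 14054 and 22 in the Gli2_EKO cells that were used.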

How the results depend on the processing

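Alternatives changed 1 choice at a time. None turned the direction of the ratio of shares or of the Ptch1 ratio, but over 14 ways to choose the cells the log2 ratios of Krt1, Krt10, Vim, Dct, Flrt2 and Pinlyp crossed 0, and with the automatic Scrublet threshold more genes were past 2-fold higher (238) than lower (193). The number of control cells ran from 243 to 480 and of Gli2_EKO cells from 137 to 256 over 15 settings, and the ratio of shares from 0.579 to 0.880, below 1 in each. A keratin limit of 20 UMIs per 10000 gave 243 control cells, a ratio of 0.880 and a Ptch1 log2 ratio of -0.70, and thinning every cell to 5000 UMIs gave 137 Gli2_EKO cells. Over 17 settings, 2 of them other scalings, 16 left the Ptch1 ratio within its counting interval. The 146 genes past 2-fold higher became 94 with the keratin limit of 20, 68 without the cells of the 8% highest doublet scores, 238 without those above the automatic Scrublet threshold, 93 without cells with 3 fibroblast markers, 61 without clusters 12, 14 and 15, 63 in clusters 0, 2 and 11 alone, 34 after thinning, 343 and 80 at 20 and 100 UMIs, and 40 among genes found in 10% of the cells. The 205 genes past 2-fold lower became 135 without cells with 3 fibroblast markers, 97 after thinning, 449 and 126 at 20 and 100 UMIs, and 45 among genes found in 10% of the cells. Thinning and the limits on UMIs change how many genes are compared; for the other settings the cause was not tested. The automatic threshold marked 30 of the 414 control cells and 0 of the 224 Gli2_EKO cells. The settings on clusters, on a keratin limit of 5, on Krt1 and Krt10, and on genes found in 10% of the cells were chosen after seeing the data. No paired analysis was possible because each genotype has 1 library, and for the same reason no replicate could be left out. At these depths a gene with under 50 UMIs was not compared.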
